A study of Rattus norvegicus with 16 samples.

Results

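The comparison described here is that of the CA1 field of the rat hippocampus after traumatic brain injury (TBI) with CA1 after sham surgery. Its members are the rows of the CA1 table whose status was OK in all 8 libraries and whose mean was at least 1 FPKM, 14637 of the table's 26031 rows and of the 50810 rows of both tables of the series. The rats were male Sprague-Dawley, of 200 to 240 g, housed under a light and dark cycle. They received a fluid percussion injury or sham surgery, were tested for learning 1 week later and were then killed. CA1 was dissected and frozen, and about 1000 ng of total RNA per sample was taken through poly-A selection and random priming. There are 4 CA1 libraries of each group among the 16 of the series, and the other 8 are from white blood cells and are not compared here. Both groups share the strain, sex, housing, interval after surgery and learning test, and differ by the injury.

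CA1 is the output field of the hippocampal circuit. Its pyramidal neurons receive input from CA3 and from the entorhinal cortex and are needed for forming spatial memory, and they are vulnerable to injury and to loss of blood supply. Fluid percussion delivers a pressure pulse to the exposed dura, which deforms the brain, disturbs ion balance and energy metabolism, opens the blood-brain barrier and activates astrocytes and microglia. In such bulk samples, fewer cells of a type and less RNA per cell cannot be told apart.

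Levels are given in FPKM, which divides fragments by transcript length and by library size and so lets genes be compared. The number of fragments per library is unknown. Of the members, 10619 name 1 gene, 3805 name none and 213 name several. Just inside the limit of 1 FPKM were RGD1306227 (1.00026), Pla2g5 (1.00028) and Tmem252 (1.00133), and just outside were Hic2 (0.99956), Wnk3 (0.99935) and Chdh (0.99932). The median FPKM of the members was 9.46 to 9.85 in the 8 libraries. Over all rows of the CA1 table, members or not, the 10 rows with the highest FPKM took 69.0% to 82.8% of a library's summed FPKM. Pearson's r between libraries across the members was 0.967 to 0.981. The labels do not say whether each sample is a separate rat or whether numbers pair samples, so every p here rests on the spread among these samples alone, which may be technical. Differences are TBI minus sham on the scale of log2(FPKM + 0.5), with their standard error, and n is 4 per group throughout.

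Several libraries stood apart in ways that the groups do not explain. The first principal component, with 22.9% of the variance, placed sham 1 at -27.4 and TBI 1 at -28.4, and the other 6 libraries at 1.77 to 19.4. In those 2 libraries some rows that carry the same symbol exchanged levels. Fxr1, an RNA-binding protein, had 1.85 and 0.482 FPKM in sham 1 and TBI 1 in its first row, against 9.87 to 15.6 in the others. Its second row held 10.97 and 12.8 FPKM in the same libraries against 0.268 to 3.69 in the others. Where a symbol has several rows, the one with the highest mean is given below. Genes of the choroid plexus, which makes cerebrospinal fluid beside the hippocampus, varied within both groups. Ttr, its thyroxine carrier, stood at 3.42, 1271, 570.5 and 287 FPKM in sham 1 to 4 and at 2694, 160.1, 574 and 423 in TBI 1 to 4. Folr1 followed it, at 0.687, 7.35, 4.47 and 2.22 FPKM in sham and 11.01, 1.14, 2.73 and 2.54 in TBI. Both were lowest in sham 1 and highest in TBI 1, and the second highest value was in sham 2.

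Some hypothalamic and pituitary transcripts were high in TBI 2 and TBI 3, and others were not. Pmch, the precursor of melanin-concentrating hormone of the lateral hypothalamus, was at 0.311, 0.633, 0.317 and 0.342 FPKM in sham and 0.0629, 68.2, 31.1 and 0.477 in TBI. Cga, the common subunit of pituitary glycoprotein hormones, was at 0.103, 0.0548, 0.0575 and 0.0608 FPKM in sham and 0, 22.02, 11.2 and 0.156 in TBI. Tshb, the thyrotropin subunit, reached 9.46 and 5.49 FPKM in TBI 2 and TBI 3 and at most 0.147 in the other 6 libraries. Hcrt, the orexin precursor, reached 12.0 and 10.8 FPKM against 1.43 to 5.10, and Npvf, an RFamide peptide precursor, reached 11 and 0.961 against at most 0.0653. Gh1 and Prl of the pituitary stayed at or below 0.924 FPKM in every library. Among other genes of the hypothalamic list, Slc17a6 was highest in sham 2, at 25.3 FPKM against 18.3 and 15.9 in TBI 2 and TBI 3. Agrp was at 3.29 FPKM in TBI 2 and 0.483 in TBI 3, against 0.680 to 0.966 in sham. Cartpt was at 17.3 FPKM in TBI 2 and 8.23 in TBI 3, but at 11.4 in TBI 1. These lists of hypothalamic and pituitary genes were drawn up after the values were seen, and the part of such transcripts in the results below was not tested.

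**Figure D1:**
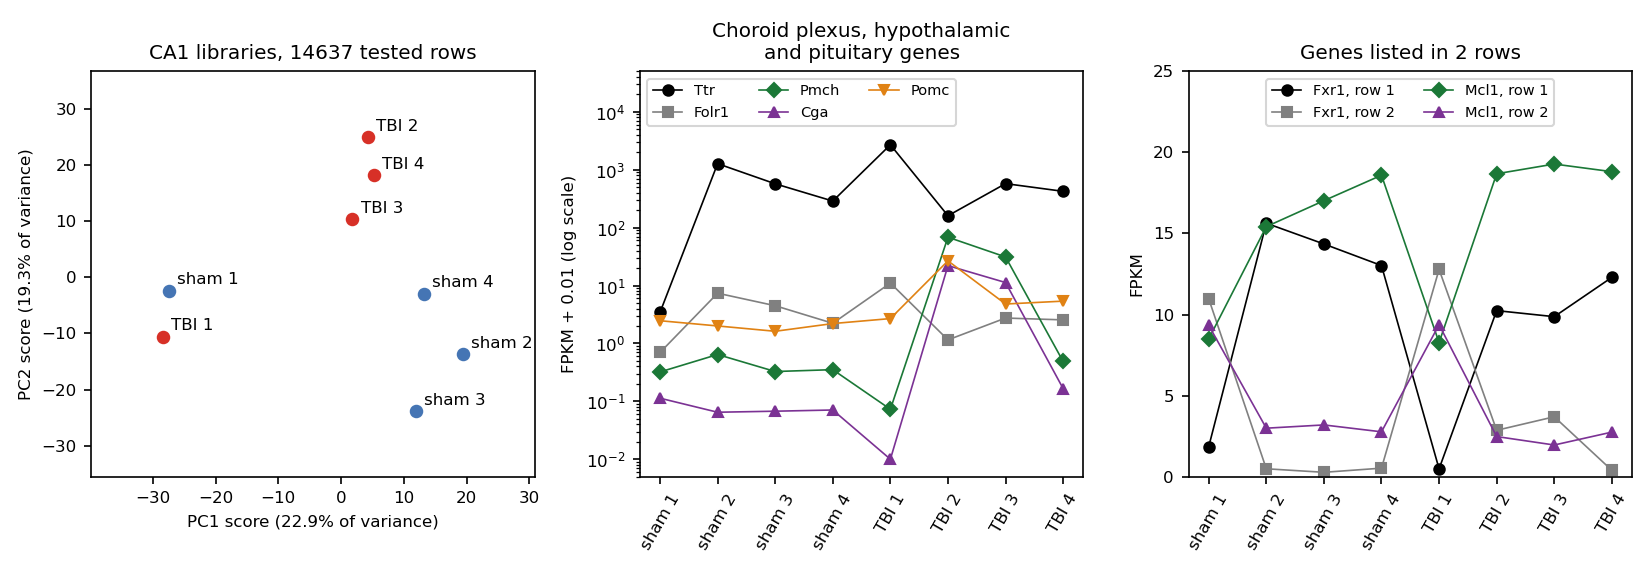
Left, scores of the 8 CA1 libraries on the first 2 principal components of log2(FPKM + 0.5) over the 14637 tested rows. Middle and right, FPKM of single genes in each library, where lines only join the values of a gene: Ttr and Folr1 peak in TBI 1, Pmch and Cga in TBI 2 and TBI 3, and the 2 rows of Fxr1 and of Mcl1 exchange levels in sham 1 and TBI 1.

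The labelled tissue was checked against its defining markers. Pyramidal markers were abundant, with the vesicular glutamate transporter Slc17a7 at 658 to 848 FPKM, the kinase Camk2a at 1239 to 1935, Neurod6 at 79.8 to 143 and Wfs1 at 74.2 to 127 over the 8 libraries. Fibcd1, a CA1 marker, was listed at 0 in all 8. Markers of the neighbouring fields were present as well: the dentate granule cell genes Prox1 (9.37 to 18.5 FPKM) and C1ql2 (62.4 to 151), and the CA3 gene Bok (39.7 to 69.9), while the CA3 gene Iyd was at most 0.0707. Interneuron, astrocyte, oligodendrocyte and microglial markers were present in all libraries. The leukocyte markers Mpo, Cd2 and Cd79b were at most 0.183 FPKM, and S100a8 and S100a9 were at most 1.53. The T cell marker Cd3e stood higher, at 1.66 to 6.40 FPKM over the 8 libraries.

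One row passed the adjusted threshold. XLOC_003441, a transcribed locus with no gene symbol and no position in the file, was listed at 0, 0, 0.00348 and 0 FPKM in sham 1 to 4 and at 10.6, 9.86, 9.11 and 10.8 in TBI 1 to 4. Every TBI library was at least 9.11 FPKM and every sham library was at or next to 0, and the limma adjusted p was 9.11e-08. The row reached the limit of 1 FPKM only through the TBI libraries, with a mean of 10.1 FPKM there and 0.00087 in sham. A locus listed at 0 in 3 libraries of a group can be a failed estimate of the counting tool, and whether this one is was not tested. It was the only call among 14637 rows, 0.00683% of them. At an unadjusted limma p under 0.05 there were 372 rows higher in TBI (2.54%) and 380 lower (2.60%), 752 in all (5.14%), where 732 would fall there by the threshold alone. In 187 rows (1.28%) all 4 TBI libraries lay above all 4 sham libraries, and in 234 (1.60%) they lay below, so 2.88% of rows had groups that did not overlap. Differences were above 0 in 46.7% of rows, with a median of -0.009. These shares are the background against which the gene groups below are read, and none of the named genes that follow passed the test.

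Without sham 1 and TBI 1 the rows at an unadjusted p under 0.05 numbered 1999, of which 790 were higher and 1209 lower, and without TBI 2 and TBI 3 they numbered 413. Leaving out sham 1 alone gave 1802 such rows, 633 higher and 1169 lower. XLOC_003441 passed in each of these fits.

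The named genes nearest to the threshold were Ppia and Cd93. Ppia encodes cyclophilin A, a peptidyl-prolyl isomerase and the target of cyclosporin. Its values were 1.65, 1.42, 1.45 and 1.37 FPKM in sham 1 to 4 and 2.73, 2.97, 3.10 and 2.85 in TBI 1 to 4. All TBI values lay above all sham values, with a log2 difference of 0.79 ± 0.08 and a limma adjusted p of 0.0569. Near-identical copies of Ppia exist in the genome, so its row is uncertain. Of 21 cyclophilins and FK506-binding proteins tested, Ppia was the 1 gene higher at an unadjusted limma p under 0.05, and the list's median was 0.06. Fkbp9, of the endoplasmic reticulum, was the 1 gene lower (-0.30, unadjusted limma p 0.0235). Cd93, a C-type lectin-like receptor of endothelium, was at 2.08, 2.46, 2.48 and 1.92 FPKM in sham and 0.772, 0.933, 1.01 and 0.892 in TBI. The highest TBI value, 1.01, lay well below the lowest sham value, 1.92. The log2 difference was -0.96 ± 0.11 and the limma adjusted p was 0.0746. Both genes lie near the limit of 1 FPKM, which Cd93 met through its sham values. Both passed with limma without a variance trend and with sample weights, as the closing section details.

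**Figure D2:**
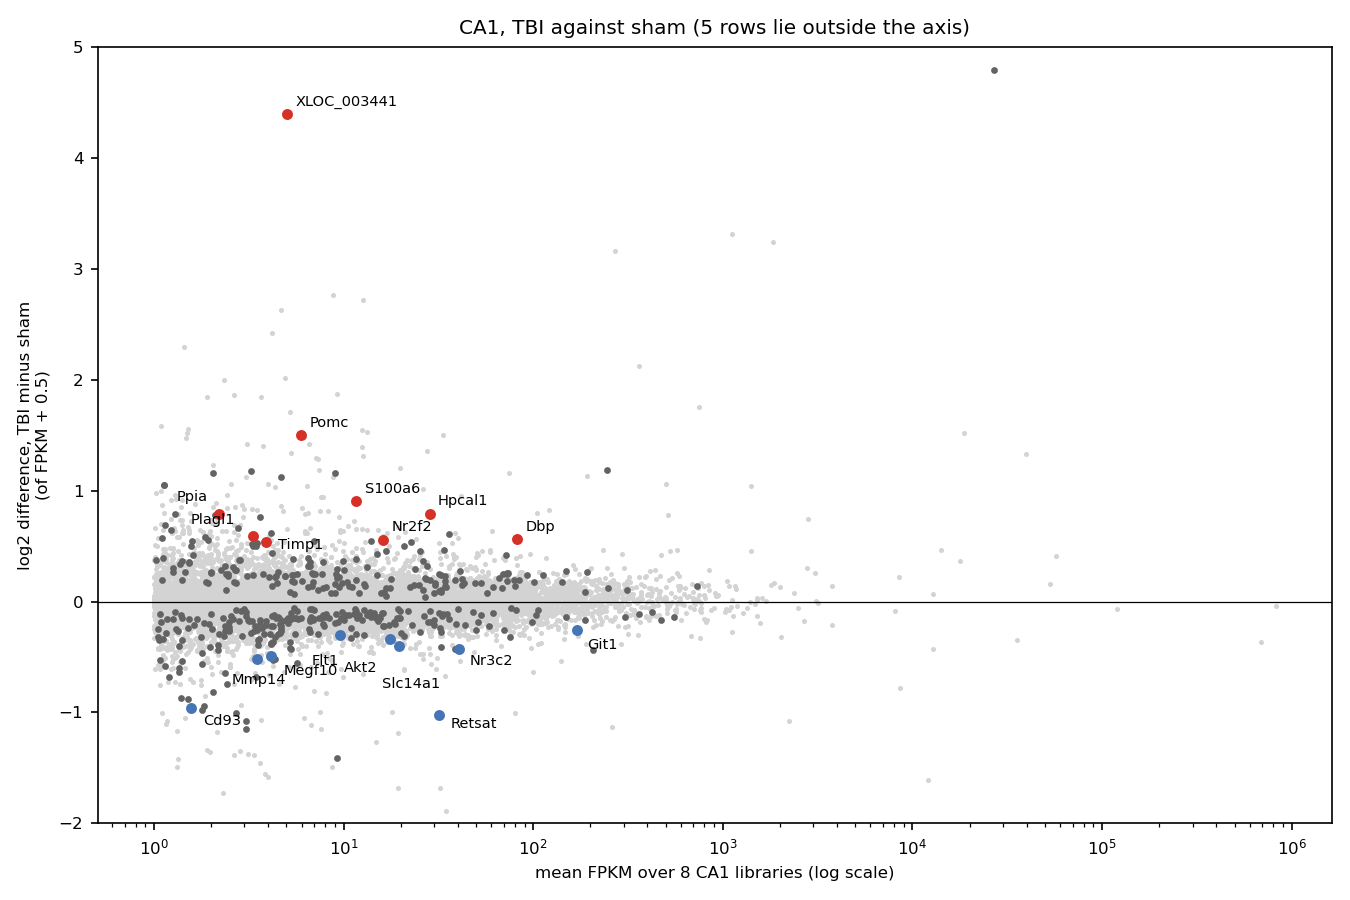
Log2 difference, TBI minus sham, of log2(FPKM + 0.5) against mean FPKM (log axis) for the tested CA1 rows. Light points are all rows, dark points rows whose groups do not overlap, and coloured points genes of the text; XLOC_003441 lies at 4.40, and 5 rows lie outside the axis.

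Among the other genes higher in TBI, those with the smallest p and groups that do not overlap had a limma adjusted p between 0.710 and 0.891. Hpcal1, a neuronal calcium sensor of the visinin family, stood at 24.5, 19.5, 19.6 and 18.2 FPKM in sham and 29.6, 49.8, 34.2 and 31.9 in TBI. Nr2f2 (COUP-TFII), an orphan nuclear receptor of interneurons and veins, stood at 13.7, 11.3, 12.8 and 13.9 FPKM in sham and 16.6, 23.1, 18.3 and 19.3 in TBI. Plagl1, an imprinted zinc finger factor, was at 2.38, 2.58, 2.72 and 2.49 FPKM in sham and 3.46, 5.23, 4.17 and 3.61 in TBI. In all 3 genes TBI 2 was the highest library, as it was for Pmch and Cga above. The differences were 0.79 for Hpcal1, 0.56 for Nr2f2 and 0.59 for Plagl1. Without TBI 2 and TBI 3 they were 0.58, 0.46 and 0.41. Leaving out the highest TBI library lowers such a difference by construction, here and below, and no cause was tested. Pomc, the precursor of corticotropin and endorphin, was 2.45, 1.99, 1.61 and 2.19 FPKM in sham and 2.67, 26.6, 4.78 and 5.36 in TBI. Its difference was 1.498 ± 0.57, and 0.76 without TBI 2 and TBI 3. Of 15 orphan nuclear receptor and imprinted genes tested, 11 were higher and 4 lower, with a median of 0.10 against -0.009 over all rows. That median was 0.245 without sham 1 and 0.22 without sham 1 and TBI 1.

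Further genes were higher in TBI without overlap. Timp1, an inhibitor of matrix metalloproteinases that reactive astrocytes make, was at 3.48, 3.19, 3.39 and 2.28 FPKM in sham and 5.05, 4.35, 5.10 and 4.16 in TBI, a difference of 0.53 ± 0.13. S100a6 (calcyclin), a calcium-binding protein, was at 11.01, 6.44, 5.35 and 9.62 FPKM in sham and 12.6, 13.7, 14.6 and 20.2 in TBI, a difference of 0.90 ± 0.23. In both of these the lowest TBI value lay above the highest sham value, and the closest pair in S100a6 was sham 1 and TBI 1. P4ha2, a collagen prolyl 4-hydroxylase, was at 5.11, 6.21, 5.48 and 6.06 FPKM in sham and 6.93, 7.18, 7.68 and 7.23 in TBI. Herpud1, which helps clear proteins from the endoplasmic reticulum, had narrow groups, at 26.1, 24.3, 24.96 and 24.5 FPKM in sham and 28.1, 28.7, 28.6 and 30.4 in TBI, a difference of 0.21 ± 0.05. Further genes of this kind were Pdzd2 (0.38), RGD1566380 (0.40), the prokineticin receptor Prokr2 (0.42), Wisp2 (0.69), Tmem256 (0.43), the mitochondrial fission protein Mtfp1 (0.38), Cml5 (0.55) and a row that carries the symbol of the microRNA gene Mir770 (0.50), all as log2 differences. TBI 2 was the highest library in Cml5 and Mir770 as well, and without TBI 2 and TBI 3 their differences were 0.43 and 0.33.

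Among genes lower in TBI, the kinase Akt2, which carries the insulin signal to glucose uptake, had 18.6, 20.2, 18.8 and 20.8 FPKM in sham and 15.4, 14.5, 15.8 and 15.98 in TBI. Slc14a1, the urea transporter of astrocytes, had 21.3, 22.9, 21.00 and 24.2 FPKM in sham and 16.5, 17.5, 14.98 and 18.2 in TBI. Megf10, a receptor by which astrocytes engulf synapses and debris, had 4.74, 5.95, 4.81 and 4.29 FPKM in sham and 3.36, 3.43, 3.005 and 3.61 in TBI. The groups were apart in all 3, by -0.34 ± 0.06, -0.40 ± 0.08 and -0.49 ± 0.10 on the log2 scale, with a limma adjusted p of 0.710 for each. Retsat, retinol saturase, had 35.4, 41.5, 41.5 and 50.2 FPKM in sham and 32.9, 20.4, 15.3 and 16.4 in TBI. TBI 1 lay close to sham 1 in Retsat, at 32.9 against 35.4 FPKM, and the other 3 TBI libraries were at or below 20.4; the difference was -1.03 ± 0.23, and -1.33 without sham 1 and TBI 1. Nr3c2, the mineralocorticoid receptor, which is dense in hippocampal neurons, had 44.1, 49.3, 43.8 and 48.4 FPKM in sham and 39.9, 28.8, 35.4 and 34.5 in TBI. Its difference was -0.42 ± 0.10, at an unadjusted limma p of 0.00197.

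Git1, a scaffold of G protein-coupled receptor signalling and of dendritic spines, was at 181, 182, 183 and 198 FPKM in sham and 158, 156, 148 and 159 in TBI. Elk3, an ETS factor of vessels, was at 6.29, 5.51, 6.39 and 6.02 FPKM in sham and 4.70, 4.30, 4.56 and 4.04 in TBI. Lpcat3, which places polyunsaturated fatty acids in phospholipids, was at 15.2, 13.4, 14.2 and 14.2 FPKM in sham and 11.99, 11.2, 10.98 and 11.6 in TBI. No TBI library reached the lowest sham library in these genes, and the differences were -0.26, -0.42 and -0.30. Fabp7, the fatty acid-binding protein of radial glia and astrocytes, ranged from 206 to 295 FPKM in sham and from 159 to 189 in TBI. Also lower without overlap were the phosphatase Dusp6 (-0.31), the receptor Tgfbr2 (-0.28), Swap70 (-0.29), the amidoxime-reducing enzyme Marc2 (-0.43), the kinase Hunk (-0.36) and the membrane-bound metalloproteinase Mmp14 (-0.52), as log2 differences.

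**Figure D3:**
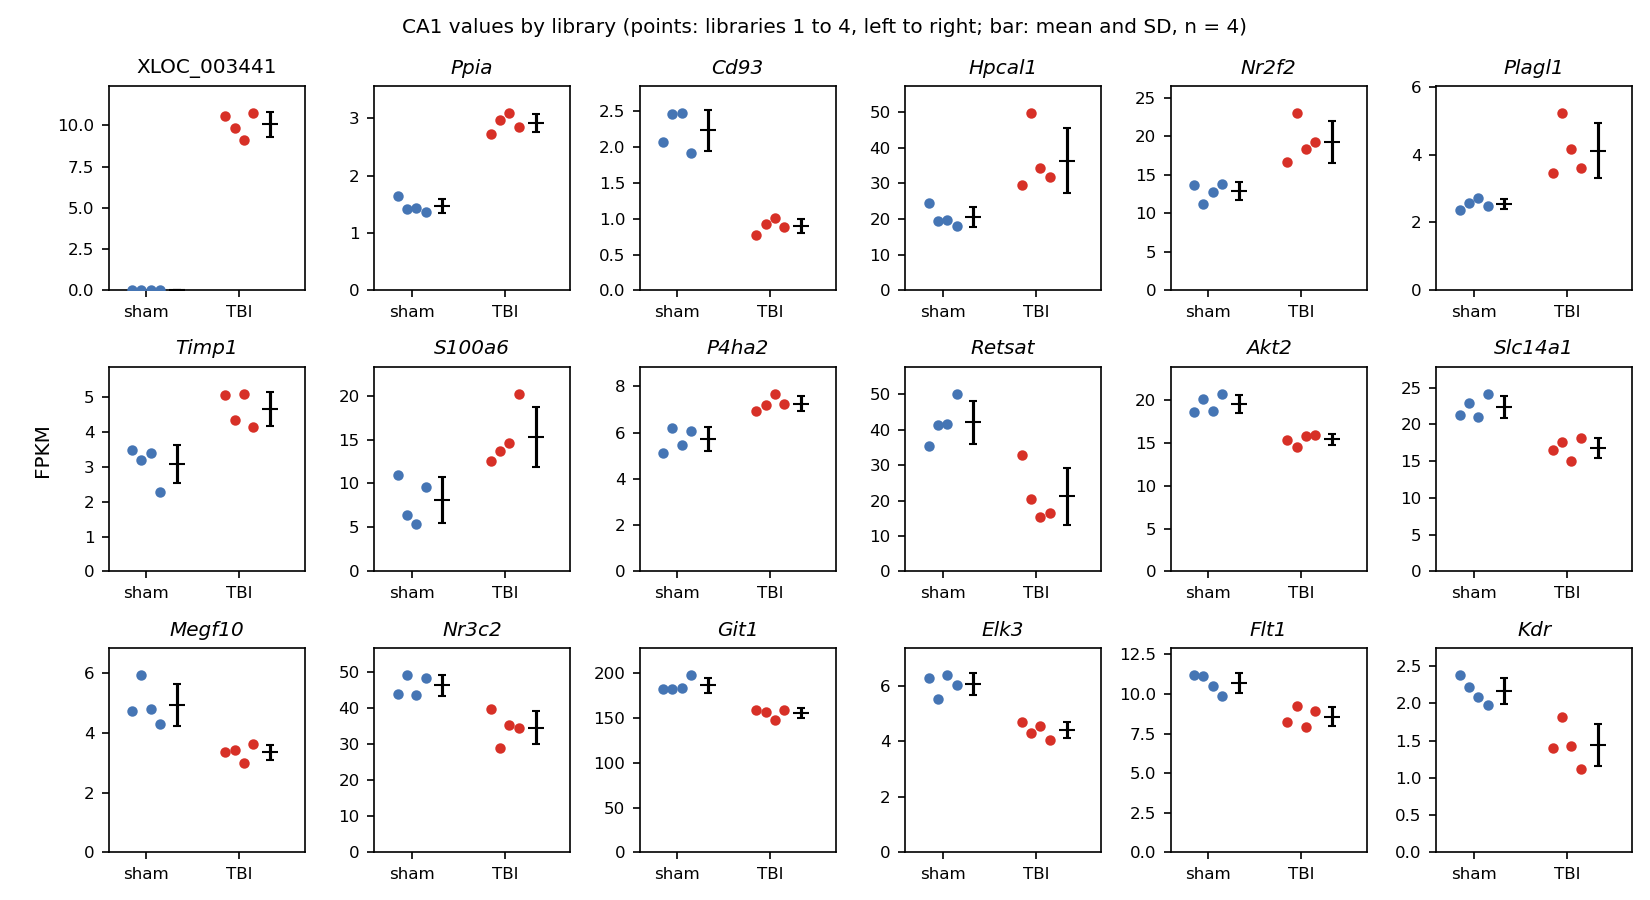
FPKM of 18 rows in each CA1 library, sham in blue and TBI in red, points in the order of libraries 1 to 4, with the mean and SD (n = 4) as bars. The groups do not overlap in any panel; TBI 2 is the highest point in Hpcal1, Nr2f2 and Plagl1, and TBI 1 the highest of its group in Retsat.

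Endothelium lines brain capillaries and forms the blood-brain barrier. Of 27 endothelial genes tested, 4 were higher and 23 lower in TBI, with a median of -0.13 against -0.009 over all rows. In 5 the TBI values lay wholly below the sham values, and 6 were lower and 1 higher at an unadjusted limma p under 0.05, against 2.60% and 2.54% of all rows. Flt1, a VEGF receptor, was at 11.2, 11.1, 10.5 and 9.89 FPKM in sham and 8.20, 9.20, 7.92 and 8.90 in TBI. Kdr, the main signalling receptor for VEGF, was at 2.38, 2.21, 2.08 and 1.97 FPKM in sham and 1.40, 1.81, 1.42 and 1.12 in TBI. Tek, the angiopoietin receptor, was at 5.82, 5.08, 4.57 and 4.94 FPKM in sham and 4.26, 4.17, 3.89 and 4.55 in TBI. Each TBI group lay just below its sham group, with differences of -0.30 ± 0.07, -0.47 ± 0.12 and -0.25 ± 0.08. Slco1c1, the thyroxine transporter of the barrier, was at 38.4, 35.5, 33.03 and 36.5 FPKM in sham and 28.9, 30.6, 29.6 and 28.8 in TBI, a difference of -0.28 ± 0.06. Podxl, a sialomucin, was lower (-0.34) with groups that overlap at 1 library. Abcg2, a drug efflux pump, went the other way, at 1.61, 6.11, 1.64 and 1.96 FPKM in sham and 6.62, 4.85, 3.18 and 8.67 in TBI, with overlapping groups. The tight junction gene Cldn5 ranged over 45.4 to 92.3 FPKM in sham, highest in sham 1, and over 46.1 to 62.2 in TBI. The list's median deviation from the sham means was 0.15, 0.01, -0.14 and -0.09 in sham 1 to 4. It was -0.18, -0.20, -0.18 and -0.07 in TBI 1 to 4, so the groups overlapped at TBI 4 and sham 1 was the highest library. Without sham 1 and TBI 1 the median difference was -0.05, with 8 genes higher and 19 lower. With 1 library left out it ranged from -0.21 without sham 3 to -0.07 without sham 1. Pericyte and smooth muscle genes had a median of -0.08 (6 higher, 8 lower of 14) and none reached an unadjusted p under 0.05; that median was above 0 without sham 1 and without TBI 1.

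The circadian clock runs on a loop in which CLOCK and BMAL1 (gene Arntl) drive the period, cryptochrome, REV-ERB and Dbp genes, whose products then repress or modulate that drive, so the level of each depends on the hour of sampling. No source used here gives the hour at which the rats were killed, so the injury and the time of day cannot be told apart for these genes. Of 19 clock genes tested, 4 were higher and 2 lower at an unadjusted limma p under 0.05, against 2.54% and 2.60% of all rows. The list's median was -0.01. The promoter of Dbp, the gene with the smallest p, is shown with those of Nr1d2 and Arntl, which lay on opposite sides, and of Per2, which carries the most motifs. Each is the 250 bases before the gene's start in RefSeq (build GRCr8), written 5′ to 3′ on the gene's strand. Searched motifs are in capitals: the E-box CACGTG, its variant CACGTT, the D-box TTATGTAA and the sequence AGGTCA, each on both strands. AGGTCA is only a part of the REV-ERB and ROR element, and the bases beside it were not searched.
Dbp, chr1:105312006-105312255, plus strand: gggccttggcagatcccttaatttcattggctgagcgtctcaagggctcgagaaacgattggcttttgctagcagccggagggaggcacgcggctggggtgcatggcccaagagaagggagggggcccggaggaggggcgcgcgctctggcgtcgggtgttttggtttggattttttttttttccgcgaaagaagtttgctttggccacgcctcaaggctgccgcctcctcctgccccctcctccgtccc
Nr1d2, chr15:9954784-9955033, plus strand: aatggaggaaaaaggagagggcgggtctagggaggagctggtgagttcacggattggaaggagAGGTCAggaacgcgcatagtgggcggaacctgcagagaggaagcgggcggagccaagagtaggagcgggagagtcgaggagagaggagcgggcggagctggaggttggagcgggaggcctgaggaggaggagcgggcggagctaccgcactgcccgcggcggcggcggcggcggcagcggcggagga
Arntl, chr1:176766078-176766327, plus strand: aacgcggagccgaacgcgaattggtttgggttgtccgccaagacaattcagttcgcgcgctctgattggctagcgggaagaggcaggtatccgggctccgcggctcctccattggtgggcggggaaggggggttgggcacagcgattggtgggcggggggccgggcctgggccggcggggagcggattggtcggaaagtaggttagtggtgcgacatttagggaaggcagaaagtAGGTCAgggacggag
Per2, chr9:99496994-99497243, minus strand: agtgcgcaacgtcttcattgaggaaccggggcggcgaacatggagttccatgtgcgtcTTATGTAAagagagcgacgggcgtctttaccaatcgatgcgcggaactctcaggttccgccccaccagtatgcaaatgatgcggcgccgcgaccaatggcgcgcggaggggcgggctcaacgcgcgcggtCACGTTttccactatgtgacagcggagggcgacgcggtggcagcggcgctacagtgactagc

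Of the 19 genes, 17 matched a RefSeq promoter, Arntl under its symbol Bmal1. The E-box was in 2 of them, Tef and Bhlhe40, against 5.59% of all 33469 promoters, and its variant was in Nr1d1, Cry2 and Per2, against 4.07%. The D-box was in Per2, against 0.828%, and the sequence AGGTCA was in Usp2, Nr1d2 and Arntl, against 14.1%. In Arntl it starts 15 bases before the gene's start, in Nr1d2 187 bases before it, and the window of Dbp holds none of the motifs. These matches describe letters in a window and are not sites of binding.

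Dbp, a PAR-bZIP factor that carries the clock's output, was at 71.4, 52.8, 63.9 and 78.96 FPKM in sham and 94.2, 103, 88.2 and 106 in TBI. Nr1d2, encoding REV-ERB beta, was at 16.2, 16.3, 17.5 and 16.2 FPKM in sham and 18.8, 21.3, 18.8 and 18.02 in TBI. Per3, a period gene, was at 5.02, 5.15, 5.01 and 5.41 FPKM in sham and 5.50, 6.51, 6.85 and 5.99 in TBI. All TBI values lay above all sham values in these 3 genes, by 0.56 ± 0.12, 0.21 ± 0.06 and 0.25 ± 0.08. Cry1, a cryptochrome, was at 3.86, 3.68, 3.50 and 3.76 FPKM in sham and 4.17, 4.21, 4.24 and 5.01 in TBI, likewise without overlap. Nfil3, a repressor that competes with Dbp for D-boxes, was at 5.50, 4.49, 4.25 and 5.25 FPKM in sham and 3.65, 4.16, 3.86 and 3.51 in TBI, each TBI value below each sham value. Arntl was at 11.7, 10.7, 10.4 and 9.73 FPKM in sham and 8.57, 9.67, 9.75 and 7.98 in TBI, where TBI 3 lay just above sham 4; its difference was -0.23 ± 0.08. Per2 (0.17, unadjusted limma p 0.0503) and Per1 (0.16, 0.0672) were higher with overlap. Nr1d1, Tef and Bhlhe40 differed by -0.02, -0.01 and -0.08, all within the spread between libraries. Without sham 1 and TBI 1, 5 clock genes were higher and none lower at an unadjusted limma p under 0.05. Of all 14637 rows, 790 were higher and 1209 lower in that fit. Without TBI 2 and TBI 3, 2 clock genes were higher and 3 lower, against 191 and 222 of all rows.

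**Figure D4:**
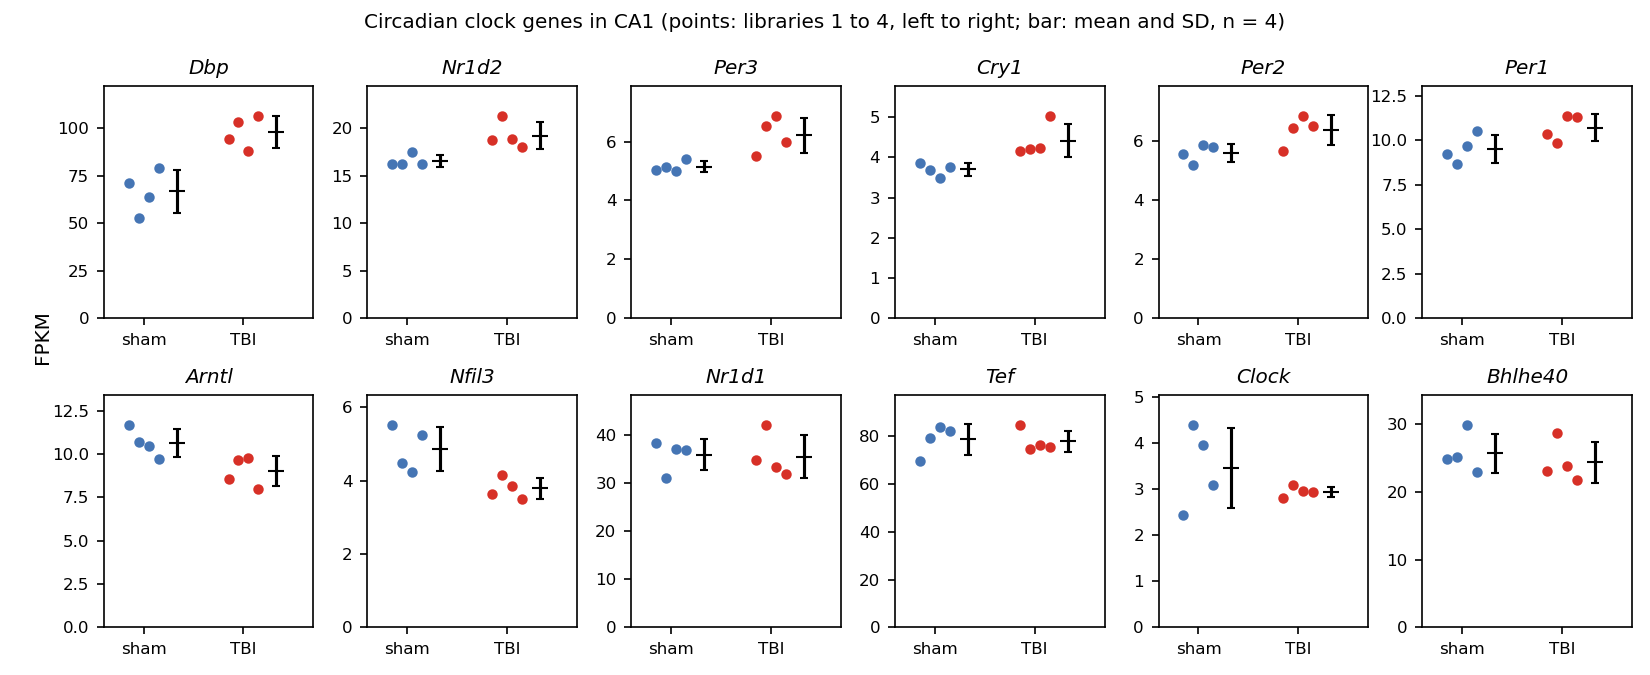
FPKM of 12 circadian clock genes in each CA1 library, sham in blue and TBI in red, with the mean and SD (n = 4) as bars. Dbp, Nr1d2, Per3 and Cry1 lie higher and Nfil3 lower in all 4 TBI libraries, Arntl overlaps at 1 library, and Nr1d1, Tef and Bhlhe40 overlap widely.

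Genes of pyramidal neurons were lower in 16 of 19 and higher in 3, with a median of -0.17, the lowest among the 49 lists with at least 10 tested genes. Rbfox3, which encodes the neuronal marker NeuN, was at 103, 103, 109 and 105 FPKM in sham and 102, 87.4, 98.7 and 83.2 in TBI. Its TBI values lay below the sham values, though TBI 1 came close to sham 1, and the difference was -0.18 ± 0.07 (unadjusted limma p 0.0347). Wfs1, an endoplasmic reticulum protein that marks CA1, was at 98.3, 127, 112 and 86.7 FPKM in sham and 106, 74.2, 82.5 and 74.4 in TBI, with overlap. Neurod2 and Neurod6, factors of excitatory neurons, differed by -0.29 and -0.28, also with overlap. TBI 2 was the lowest library of the list, at a median of -0.27 from the sham means, and the median over genes was -0.10 both without TBI 2 and without TBI 2 and TBI 3. Genes of the dentate gyrus and CA3 had a median of -0.15 (5 higher, 10 lower), which was 0.009 without TBI 2, -0.04 without TBI 2 and TBI 3, and -0.24 without TBI 1 or TBI 3. It was also smaller by over 1.5 times without sham 2 or sham 4.

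Postsynaptic density genes, which anchor glutamate receptors, were lower in 23 of 25 with a median of -0.12, which was -0.21 without sham 1 and -0.06 without sham 3. The list's median deviation from the sham means was -0.19, 0.03, 0.11 and 0.02 in sham 1 to 4. It was -0.09, -0.14, -0.08 and -0.17 in TBI 1 to 4, so the groups overlapped and sham 1 was the lowest library. Git1 and the scaffold Homer1, at 24.4, 26.1, 24.9 and 23.7 FPKM in sham and 20.97, 22.6, 22.3 and 19.5 in TBI, were lower without overlap, 2 of 25 against 1.60% of all rows. The scaffolds Shank3 and Lrrc7 differed by -0.22 and -0.20, with overlap. Without sham 1 and TBI 1, 10 of the 25 had TBI values wholly below sham and the median was -0.20, while 20.3% of all rows were without overlap in either direction in that comparison of 3 against 3. Presynaptic release genes had a median of -0.004, with 11 higher and 16 lower of 27.

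Receptor and channel genes were mixed. Of 23 glutamate receptor genes, 9 were higher and 14 lower, with a median of -0.06, which was 0.009 without TBI 4. Grin2c, the NMDA receptor subunit of astrocytes and interneurons, was at 18.3, 16.6, 18.2 and 17.5 FPKM in sham and 16.5, 14.4, 15.8 and 13.9 in TBI, without overlap. Grm3, a presynaptic and astrocytic metabotropic receptor, was lower (-0.23) with overlap. Of 17 GABA receptor genes, 5 were higher and 12 lower; Gabra3 was higher by 0.45 ± 0.16, at 15.2, 11.7, 11.8 and 11.01 FPKM in sham and 13.1, 22.1, 15.5 and 18.5 in TBI, with TBI 2 highest. Gabbr1, a subunit of the GABA-B receptor, was at 423 to 465 FPKM in sham and 399.9 to 419 in TBI, apart by a small margin. None of 42 potassium channel genes (median -0.001) and none of 27 sodium, calcium and HCN channel genes (median -0.04) reached an unadjusted limma p under 0.05. Interneuron genes had a median of 0.04, which was below 0 without sham 2 or TBI 2, while Gad1 and Gad2, the enzymes of GABA synthesis, and the cannabinoid receptor Cnr1 were lower, with log2 differences of -0.18, -0.34 and -0.25, each at an unadjusted limma p between 0.0195 and 0.0371 and with overlap.

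Immediate early genes are switched on by neuronal activity within minutes. Of 28 tested, 7 were higher and 21 lower with a median of -0.13. At an unadjusted limma p under 0.05, 6 were lower and none higher, against 2.60% and 2.54% of all rows. The list's median deviation from the sham means was -0.03, -0.27, 0.02 and 0.15 in sham 1 to 4. It was -0.19, -0.002, -0.19 and -0.34 in TBI 1 to 4, so sham 2 lay below TBI 1, TBI 2 and TBI 3. The median difference was -0.23 without TBI 2 and -0.08 without TBI 4, the lowest and highest with 1 library left out. It was also over 1.5 times larger without sham 2. Homer1 is among the immediate early genes as well as among the postsynaptic genes. Dusp6, a phosphatase that limits ERK, was at 20.3, 24.1, 24.2 and 23.7 FPKM in sham and 19.1, 18.9, 19.3 and 16.7 in TBI. Egr3, a zinc finger factor of memory consolidation, was at 31.2, 32.03, 38.6 and 37.4 FPKM in sham and 29.8, 30.6, 30.98 and 25.7 in TBI. Both groups lay apart, with sham 1 the lowest sham library in Dusp6. Dusp5 (-0.26), the kinase Sik1 (-0.43) and the pentraxin Nptx2 (-0.24) were lower with overlap. Learning was tested before the rats were killed, and no source used here says how long before. Bdnf, a growth factor that activity also induces, was at 14.03, 12.3, 9.05 and 13.8 FPKM in sham and 10.8, 8.61, 11.6 and 8.75 in TBI, with overlapping groups.

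Astrocyte genes were split (10 higher, 12 lower, median -0.02). Beside Slc14a1, the water channel Aqp4 was at 135, 122, 119.8 and 118 FPKM in sham and 119.7, 89.1, 90.9 and 84.2 in TBI. TBI 1 lay among the sham values and the other 3 TBI libraries lay below all of them. Aqp4 has 2 rows, and the row given was highest of its group in sham 1 and TBI 1. An Aqp4 row was among the leading loadings of the first principal component, which set those libraries apart. Whether its rows exchanged levels was not tested. Gfap, the filament protein that reactive astrocytes raise, was at 322, 338, 298 and 415 FPKM in sham and 295, 276, 277 and 323 in TBI, lower in TBI (-0.22) with overlap. Among 13 reactive astrocyte genes, Timp1 and the hyaluronan receptor Cd44, at 2.46, 2.40, 2.22 and 2.92 FPKM in sham and 3.36, 2.74, 2.90 and 3.47 in TBI, were higher at an unadjusted limma p under 0.05, and 8 were higher and 5 lower in all.

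Microglial genes were higher in 14 of 24, with a median of 0.05, between 0.009 without TBI 4 and 0.09 without TBI 1. C1qb, a chain of the first complement component, was at 31.5, 26.98, 29.3 and 31.6 FPKM in sham and 29.6, 36.4, 34.7 and 36.6 in TBI. The TBI libraries 2 to 4 lay above every sham library and TBI 1 did not. Of 15 complement genes, 10 were higher, with a median of 0.10, which was 0.23 without TBI 1 and 0.06 without TBI 4. Cd55, which protects cells from complement, was at 1.36, 1.62, 2.53 and 1.30 FPKM in sham and 2.94, 2.43, 2.67 and 2.36 in TBI. Cx3cr1, the fractalkine receptor of resting microglia, was lower (-0.18) with overlap. Galectin-3, Lgals3, which marks activated phagocytes, was at 2.23, 2.33, 1.80 and 1.60 FPKM in sham and 2.36, 2.80, 2.50 and 2.38 in TBI, without overlap. Of 20 phagocytosis and lysosome activation genes tested, 9 were higher and 11 lower, with a median of -0.003. Groups did not overlap in 1 gene higher and 1 gene lower, against 1.28% and 1.60% of all rows.

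The median of 11 antigen presentation genes was 0.16, and 9 of them had higher values in TBI. It was 0.25 without TBI 1, 0.07 without TBI 4 and 0.065 without sham 3. RT1-Ba, a rat MHC class II gene, was at 1.28, 1.34, 1.08 and 1.12 FPKM in sham and 1.17, 1.94, 1.65 and 2.67 in TBI, and Cd74, the invariant chain, was at 8.29, 7.24, 5.97 and 5.12 FPKM in sham and 5.03, 8.09, 8.85 and 15.3 in TBI. TBI 4 was highest in both, and TBI 1 lay within the sham range in RT1-Ba and below it in Cd74. Interferon-stimulated genes had a median of -0.10 (4 higher, 13 lower of 17). That median moved by over 1.5 times when sham 1, sham 2, sham 3, TBI 1 or TBI 3 was left out, between -0.16 and -0.03. Cytokine and chemokine genes had a median of -0.02 (4 higher, 7 lower of 11). Neither list held a gene at an unadjusted limma p under 0.05. Among 3 red cell genes, Alas2, which starts heme synthesis, was at 2.63, 2.20, 2.87 and 2.84 FPKM in sham and 3.11, 6.20, 3.54 and 3.38 in TBI, highest in TBI 2, and its difference was 0.50, or 0.26 without TBI 2 and TBI 3.

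Genes of the respiratory chain and ATP synthase were higher in 66 of 69 by small amounts, with a median of 0.10 against -0.009 over all rows. None passed, 6 were higher at an unadjusted limma p under 0.05 (2.54% of all rows), and 3 were without overlap. Ndufb4, a subunit of complex I, was at 76.2, 81.3, 63.7 and 73.2 FPKM in sham and 85.5, 85.6, 83.2 and 81.9 in TBI. Ndufa11, of the same complex, was at 143, 122, 127 and 142 FPKM in sham and 148, 145, 148 and 162 in TBI. Cox4i1, of cytochrome c oxidase, was at 747, 650.3, 642 and 744 FPKM in sham and 747, 794, 751 and 767 in TBI. The groups were apart in all 3, narrowly so: sham 2 lay next to TBI 4 in Ndufb4, and sham 1 next to the lowest TBI value in Ndufa11 and Cox4i1. Over the list, the median deviation from the sham means was 0.06, -0.07, -0.10 and 0.08 in sham 1 to 4, and 0.11, 0.13, 0.05 and 0.14 in TBI 1 to 4, so the lowest TBI library lay below sham 1 and sham 4. Without sham 3 the median difference was 0.06.

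Cytosolic ribosomal protein genes were higher in 54 of 60, with a median of 0.15. The medians were 0.14, -0.15, -0.15 and 0.16 in sham 1 to 4 and 0.04, 0.19, 0.11 and 0.25 in TBI 1 to 4, so the groups overlapped here too. The median difference was 0.09 without sham 2 and 0.10 without sham 3. Rps27 was at 36.3, 28.98, 28.03 and 41.2 FPKM in sham and 43.7, 40.3, 41.5 and 52.00 in TBI, and Rps23 at 63.2, 70.99, 63.1 and 71.2 FPKM in sham and 80.9, 94.6, 71.7 and 74.9 in TBI, the latter without overlap. Mitochondrial ribosomal protein genes were higher in 59 of 65 with a median of 0.07, which was 0.04 without sham 3, and 34 proteasome genes had a median of 0.02 (23 higher). Many ribosomal protein genes have near-identical copies, and their rows are less certain for that reason. In both the respiratory chain and the cytosolic ribosome list, sham 1 and sham 4 lay above sham 2 and sham 3, and the part of that split in the differences was not tested.

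Matrix and meningeal genes were mixed. Of 30 collagen and matrix genes, 11 were higher and 19 lower. At an unadjusted limma p under 0.05, 3 were higher and 5 lower, against 2.54% and 2.60% of all rows. Timp1, P4ha2 and the inhibitor Timp2, at 95.5, 75.7, 83.3 and 70.6 FPKM in sham and 91.3, 142, 105 and 104 in TBI, were the higher ones, and in Timp2 the difference was 0.43, or 0.27 without TBI 2 and TBI 3. Mmp14 was at 3.68, 5.40, 3.76 and 3.99 FPKM in sham and 3.30, 2.69, 2.49 and 2.58 in TBI, and Col4a1, a basement membrane collagen, at 5.28, 5.63, 5.20 and 4.63 FPKM in sham and 3.64, 4.23, 4.60 and 4.43 in TBI. Both of these lay lower in TBI without overlap. With the replicate number as a block, 2 genes of the list were lower at that p, and without TBI 2 and TBI 3 also 2. Of 16 genes of meninges and fibroblasts, 13 were higher, with a median of 0.21, the highest among the 49 lists. The proteoglycan Dcn was at 11.8, 14.98, 11.3 and 13.2 FPKM in sham and 16.8, 14.9, 17.96 and 16.7 in TBI, and Fmod at 2.35, 2.50, 3.17 and 3.08 FPKM in sham and 3.27, 3.46, 4.79 and 5.14 in TBI. In Dcn TBI 2 lay just below sham 2, and in Fmod the groups were apart. The list's median was 0.07, -0.14, 0.32 and 0.44 in TBI 1 to 4, against -0.05 to 0.03 in sham, so it was lowest of all in TBI 2, and the median difference was 0.32 without that library. Choroid plexus genes had a median of 0.14, and of -0.60 without sham 1 and TBI 1, the libraries in which Ttr was lowest and highest. It was also below 0 without either one of them alone, and 0.55 without sham 2.

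Metabolic and hormone-response lists were split in direction. Of 20 retinoid genes, 11 were higher and 9 lower; beside Retsat, the receptor Rara was at 6.92, 6.91, 6.90 and 7.92 FPKM in sham and 5.73, 5.78, 6.49 and 5.75 in TBI, without overlap, and Rxra was higher by 0.17 with overlap. Of 21 glucocorticoid-response genes, 10 were higher and 11 lower. Tsc22d3 (GILZ), a direct target of the glucocorticoid receptor, was at 33.4, 35.4, 33.6 and 42.9 FPKM in sham and 39.3, 43.95, 45.1 and 55.8 in TBI, with overlap at TBI 1. Nr3c1, the glucocorticoid receptor, differed by -0.15 with overlap. Of 22 insulin and AKT genes, 7 were higher and 15 lower, and Akt2 was the only one at an unadjusted limma p under 0.05. Among 26 cholesterol and lipid genes (median -0.07), Lpcat3 was lower and Abca1, a cholesterol exporter, was higher by 0.23. Bnip3, a mitophagy receptor that hypoxia induces, was at 29.4, 32.1, 33.1 and 32.5 FPKM in sham and 36.7, 37.9, 34.8 and 35.9 in TBI, without overlap. Among 28 antioxidant and iron genes, the mitochondrial peroxidase Prdx3 was higher (0.16) and the mitochondrial thioredoxin reductase Txnrd2 lower (-0.27), both without overlap.

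No gene reached an unadjusted limma p under 0.05 among oligodendrocyte and myelin genes (25 tested, median 0.007), oligodendrocyte precursors (14, median -0.08), neurotrophins and their receptors (16, median -0.06), DNA methylation (10, median -0.03) and cell division (11, median -0.01). Myelin varied within groups: Mbp was at 3209, 2456, 2403 and 3020.3 FPKM in sham and 3263, 3489, 2521 and 4064 in TBI, with overlap. Of 25 endoplasmic reticulum stress genes, 12 were higher and 13 lower, and of 17 heat shock genes, 8 and 9. Of 19 hypoxia and angiogenesis genes, 6 were higher and 13 lower, and the VEGF and angiopoietin receptors are among them. Only 1 of 17 neutrophil and monocyte genes and 2 of 19 T, B and NK cell genes reached the limit of 1 FPKM. Medians within 0.005 of 0, such as those of potassium channels and presynaptic release, took the opposite sign under median-ratio scaling or quantile normalization. Neurogenesis genes had a median of -0.03, and the sialoglycoprotein gene Cd24 was lower (-0.30) with overlap. In axon injury and growth genes (median 0.05) Gap43, of growth cones, was at 212, 192, 164 and 155 FPKM in sham and 189, 275, 219 and 211 in TBI, and the neurofilament Nefl at 493, 506, 505 and 497 FPKM in sham and 457, 369.6, 489 and 473 in TBI. Nefl was without overlap, by a narrow margin at TBI 3, and Gap43 overlapped.

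**Figure D5:**
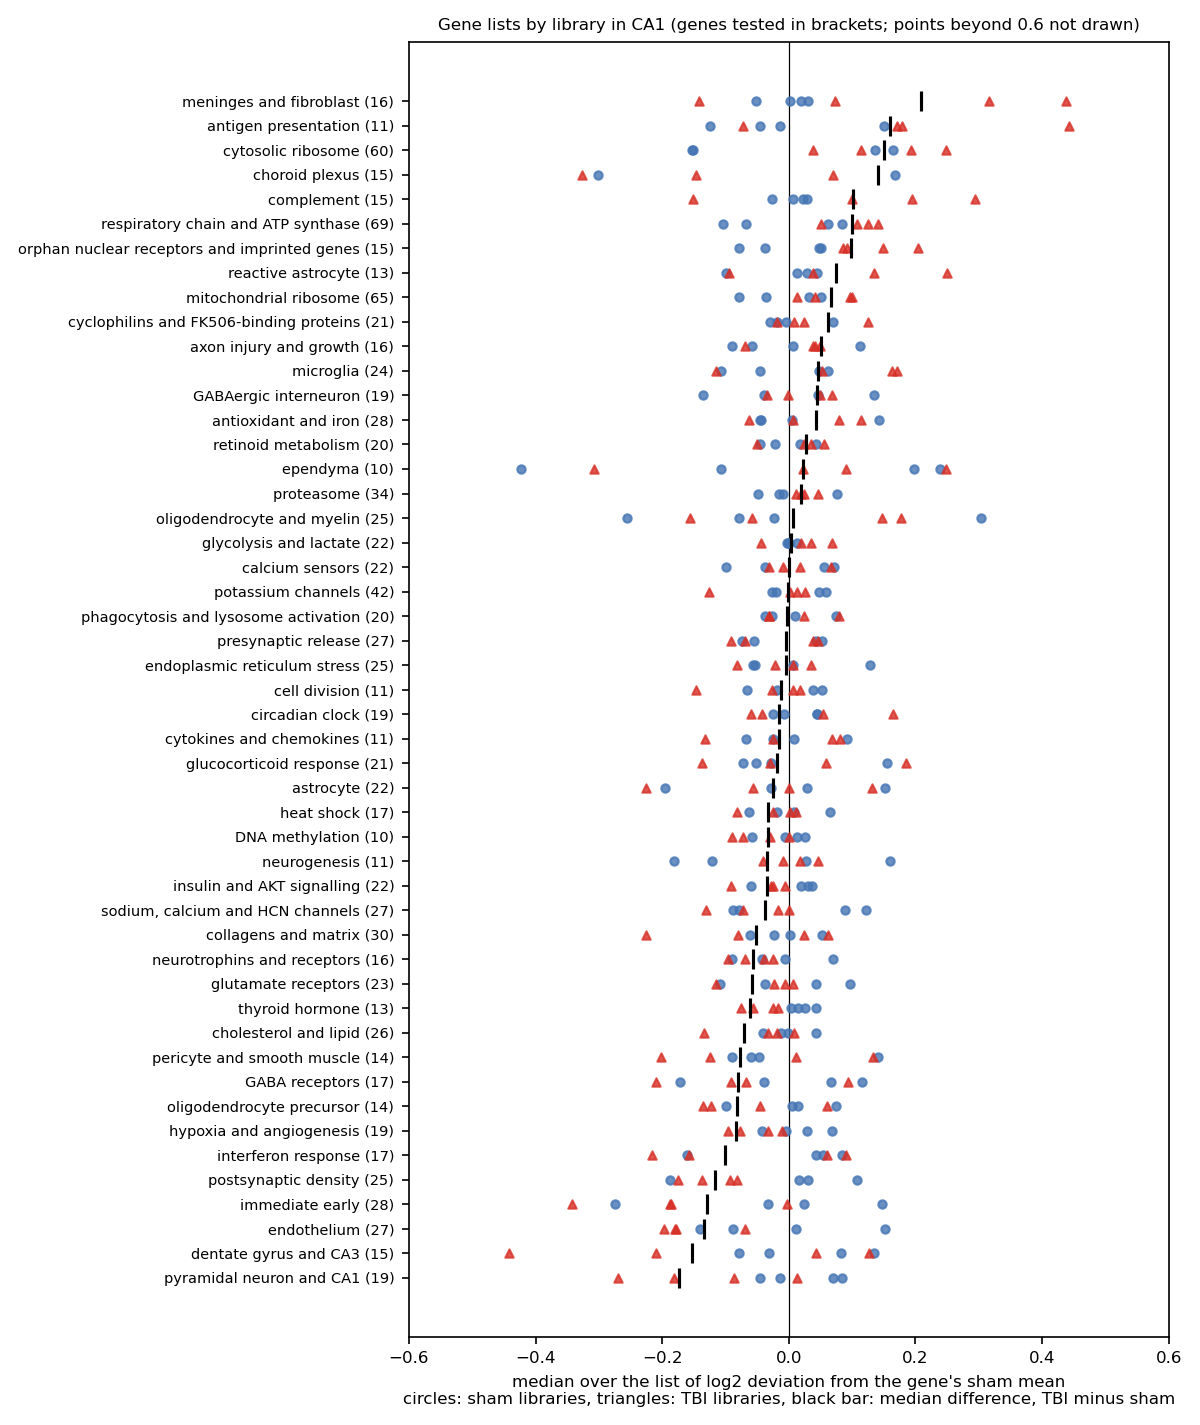
For each list with at least 10 tested genes, the median over its genes of the log2 deviation from the gene's sham mean in each sham library (circles) and TBI library (triangles), and the median difference (bar). The widest ranges are those of choroid plexus, ependyma, and meninges and fibroblast genes; the points of choroid plexus beyond 0.6 are not drawn, and for the respiratory chain all TBI points lie above 0 and 2 sham points do as well.

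Groups overlapped in very abundant genes. Snap25, of the synaptic fusion complex, was at 2186, 3100.4, 3317 and 2779 FPKM in sham and 2204, 2666, 2575 and 2562 in TBI, and Calm3, a calmodulin gene, at 1294, 1679, 1682 and 1701 FPKM in sham and 1414, 1385, 1490.4 and 1476 in TBI. Camk2a was lower (-0.19) with overlap. The thymosin gene Tmsb4x and the protease inhibitor Cst3 differed by 0.13 and 0.17, and the kinetochore gene Zwint by 0.01, and quantile normalization gave Tmsb4x and Zwint the opposite sign.

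Some rows differed widely between libraries of a group. The row of Ddx39b, an RNA helicase, was listed at 0 in all sham libraries and in TBI 3, and at 1968, 1082 and 826 FPKM in TBI 1, 2 and 4. A second Ddx39b row was between 70.0 and 80.9 FPKM in all 8 libraries. The first row's log2 difference was 8.43 ± 2.37, which depends on the pseudocount because sham was listed at 0. It did not pass with 8 libraries (limma adjusted p = 0.891) and passed when TBI 3, or TBI 2 and TBI 3, were left out, with the limma adjusted p between 1.71e-06 and 1.0 over the alternatives. Rpl30 was at 0.924, 13.6, 14.97 and 0.673 FPKM in sham and 13.1, 0.733, 14.1 and 0.792 in TBI, so each group held 2 libraries below 1 FPKM and 2 above 13. RT1-CE10, an MHC class I gene, was at 22.7, 17.3, 79.8 and 22.8 FPKM in sham and 88.3, 0, 7.28 and 20.8 in TBI. Adnp was at 0.216 and 0.0018 FPKM in sham 1 and TBI 1 and between 8.99 and 14.96 in the other 6 libraries.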

How the data were processed

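CA1 was measured by poly-A RNA sequencing in 4 libraries labelled sham and 4 labelled TBI. The deposited values are FPKM with a status per row and library; the submitters' processing notes name TopHat, TopHat2, Bowtie, Bowtie2, Cufflinks, Cuffdiff and the build rn5. Their versions, the annotation, the strand setting and the library-size scaling are not stated by any source used here, so FPKM hold no fragment counts and no count model was run; depth is unknown and intervals that need it are not given. Rows were kept with status OK in all 8 libraries and a mean of at least 1 FPKM, and log2(FPKM + 0.5) was compared with limma 3.58.1 (R 4.3.3; lmFit, eBayes with a trend, no covariate, 2-sided, Benjamini-Hochberg adjustment over all 14637 rows, threshold 0.05). A pseudocount understates changes of low genes. White blood cell libraries were left out because their values are in a separate table, and whether both tables share a scaling is not stated. The fit was tested on simulated data.

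Genes were named by rule: every row past the threshold, the 15 smallest p in each direction without overlap, the 8 largest differences in each direction without overlap at a mean of at least 5 FPKM, the 3 smallest p in each gene list, the 10 highest means, the 12 largest spreads, the leading loadings of the first components and the cell type markers. A gene that the rule names may be not reported here. A further 30 genes with a test were named after their values were seen. Members and lists were chosen with earlier results of these data known. Alternatives changed the pseudocount, filter, scaling, variance model, row choice and libraries. Promoters came from RefSeq (GRCr8). Python 3.11.15, numpy 2.4.6, pandas 2.3.3 and matplotlib 3.10.9 were used.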

Additional observations from a re-analysis of the deposited data

Results flagged for a closer look

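In each group of 4 libraries, the highest or lowest library was compared with the other 3, for 76 groups of gene values and 98 groups of list medians. In 8 of these 174 the gap to the nearest library, divided by the range, was above Dixon's critical value for 4 samples. Chance gives about 1 group in 20, and the 8 are near that share.

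XLOC_003441 was listed at 0.003482 FPKM in sham 3 and at 0 in the other sham libraries, where any value above 0 would be flagged. Git1 was at 197.9 FPKM in sham 4 and at 181.5 to 182.7 in the other sham libraries. Dusp6 was at 20.26 FPKM in sham 1 against 23.7 to 24.23 in the rest of its group, and at 16.69 in TBI 4 against 18.94 to 19.27. Both outlying Dusp6 values were the lowest of their group.

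The other 4 were medians over a gene list of the log2 deviation from the sham mean. For endothelium, TBI 4 was at -0.0692 and the other TBI libraries at -0.1967 to -0.1777. The sham libraries ranged from -0.1398 to 0.1523, so TBI 4 lay within the sham range. The interferon response list was at -0.1604 in sham 3, and at 0.0431 to 0.0843 in the other sham libraries. Potassium channel genes were at -0.1262 in TBI 4, against 0.0024 to 0.0251. Axon injury and growth genes were at -0.0698 in TBI 4, against 0.0379 to 0.0489. TBI 4 was the outlying library in 4 of the 8 cases.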

How the results depend on the processing

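XLOC_003441 was called in every alternative that tested it, with limma adjusted p from 1.91e-08 to 0.000444; it carries no symbol and was not among the rows that name exactly 1 symbol. With no filter on the mean, 1256 rows had an unadjusted limma p under 0.05, and with a minimum mean of 5 FPKM 450 did. Calls were 1 higher and 1 lower (Cd93) with quantile normalization, and 2 higher and 1 lower (XLOC_003441, Ppia and Cd93) without the variance trend, with sample weights and at an adjusted p under 0.1. Sample weights gave 2022 rows at an unadjusted p under 0.05. Among rows that name exactly 1 symbol, 1 was higher (Ppia) and 1 lower (Cd93). The limma adjusted p ranged from 0.0118 to 0.959 for Ppia and from 0.0216 to 0.755 for Cd93 over the alternatives.

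Leaving out 1 library at a time gave 1 to 2 higher calls and 0 to 1 lower. The second higher call was Nxph3 without sham 1, Kif3c without TBI 1 and Ddx39b without TBI 3, and the lower call was XLOC_007601 without sham 2. Rows at an unadjusted p under 0.05 ranged from 497 without sham 3 to 1802 without sham 1, and those higher in TBI from 35.1% of them without sham 1 to 60.9% without sham 4. Rows without overlap ranged from 4.17% to 12.7%, with fewer libraries to keep apart. Without sham 1 and TBI 1 there were 2 higher calls, 1999 rows at that p and 20.3% without overlap. Without sham 2 and TBI 1 there were 2 higher calls and 10.8% without overlap. Without TBI 2 and TBI 3, chosen after seeing the data, there were 2 higher calls, 413 rows and 9.74% without overlap. The cause of these shifts was not tested.

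Some genes far from the threshold changed sign. Tmsb4x (-0.031) and Zwint (-0.011) did so with quantile normalization, and Il34 (-0.0097) and Cldn5 (0.00021) with sample weights. Without sham 1 and TBI 1 the values were -0.81 for Ttr, 0.023 for Nr1d1 and -0.012 for Zwint. Mmp9 was at -0.073 without sham 2 and TBI 1 and at -0.057 without TBI 2 and TBI 3, where Cd3e was at 0.24 and Tef at 0.026. With 1 library left out, values ranged from -0.059 to 2.72 for Ttr, -0.0102 to 0.13 for Il34, -0.295 to 0.043 for Cldn5, -0.0999 to 0.0305 for Nr1d1, -0.027 to 0.0798 for Bpgm, -0.076 to 0.29 for Mmp9, -0.073 to 0.018 for Tef and -0.016 to 0.037 for Zwint. None of these reached an adjusted p under 0.05 in any alternative.

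Same-numbered libraries had correlated deviations of 0.21, 0.023, 0.051 and 0.24, and sham 2 and sham 3 correlated best with another number, a hint from the data and not from the design. With the replicate number as a block, 1 row was called (XLOC_003441) and 869 rows had an unadjusted limma p under 0.05, of which 468 were higher and 401 lower. The other alternatives kept each count within 1.5 times its value, and of 1194 list medians 21 moved by more than the spread between libraries. FPKM without fragment counts give no limit of detection.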
